A study of Mus musculus with 30 samples.

Results

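The 9 genes described here encode very large or filament-linking proteins of the sarcomere. They are titin (Ttn), nebulin (Neb), the nebulin-related anchoring protein gene Nrap, obscurin-like 1 (Obsl1), the 3 myomesins (Myom1, Myom2 and Myom3) and the slow and fast skeletal forms of myosin-binding protein C (Mybpc1 and Mybpc2). They were chosen by symbol from 30205 annotated genes, and the values of their transcripts were summed in each library. Mybpc1 and Mybpc2 encode thick filament proteins and were kept apart from the myomesins.

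On the GRCm38 (mm10) annotation Ttn lies at chr2:76703980-76982547 (minus strand) and Neb at chr2:52136647-52378474 (minus strand), with longest annotated transcripts of 106824 and 22489 bases. The other genes are shorter, with longest transcripts of 3624 (Mybpc2) to 5679 bases (Obsl1), and lie at chr1:75479310-75506452 (minus strand) (Obsl1), chr19:56320035-56390037 (minus strand) (Nrap), chr17:71002633-71126856 (plus strand) (Myom1), chr8:15057653-15133541 (plus strand) (Myom2), chr4:135759715-135815564 (plus strand) (Myom3), chr10:88518279-88605152 (minus strand) (Mybpc1) and chr7:44501699-44524656 (minus strand) (Mybpc2).

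RNA was sequenced in 30 libraries, 3 for each of 10 groups. The immortal mouse myoblast line C2C12 was taken on plastic at day 0 (D0, confluent myoblasts before serum withdrawal) and as myotubes after 4 or 7 days of differentiation (D4 and D7) on plastic, unpatterned gelatin or patterned gelatin, a hydrogel with moulded grooves. Primary myoblasts from hindlimb muscle of 3 C57/Bl6J mice aged 8 weeks were taken at D0 on a substrate labelled plastic (the study's methods describe dishes with a matrix coating for their growth) and as myotubes at D4 and D7 on patterned gelatin. The study asked how the substrate and the source of the cells alter the maturation of myotubes in culture. Cultures at D4 and D7 were briefly trypsinized to enrich for myotubes. The study's methods do not describe how D0 cultures were collected, so that any difference in collection cannot be told apart from day. No primary myotubes on plastic or unpatterned gelatin were analysed here. C2C12 is a single line, and the study's text describes the 3 libraries of a condition as separate cultures. It also describes more libraries than the 30 used here, from separate batches of C2C12 cells that often differed in which genes were regulated. The sample titles used here name no batch.

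A sarcomere is the contractile unit of striated muscle and is bounded by Z discs. Titin spans from the Z disc to the M band at the centre and acts as a spring and a scaffold, while nebulin lies along the actin thin filament. Myomesins cross-link neighbouring myosin thick filaments at the M band, where obscurin-like 1 binds titin and myomesin. Myosin-binding protein C binds the thick filament and tunes how myosin meets actin, and Nrap is found in assembling myofibrils and at the ends of muscle fibres.

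Levels are given as TPM, the share of transcripts after correction for transcript length, and differences as log2 fold changes ± SE from edgeR's quasi-likelihood test on estimated counts. The counts were not corrected for transcript length, so that a fold can differ from the ratio of the TPM printed beside it. A gene was called where its p, adjusted over all genes tested (14844 for C2C12, 14352 for primary cells and 15447 for both), was under 0.05, and all 9 genes were tested in every comparison. Total estimated counts, in megacounts (Mcounts), ran from 13.1 to 59.4 per library, of which the 9 genes took 0.172% to 6.28%. Summed myogenic markers (Myod1, Myog, Myf5, Des and Ckm) stood at 955 to 1178 TPM in C2C12 myoblasts and 3519 to 5555 TPM in C2C12 myotubes, and summed endothelial, macrophage and adipocyte markers did not exceed 14.1 TPM in any library. The primary libraries numbered 3 stood apart, with the lowest Myom1 and Nrap of their group at each time, and calls that rest on them are also given without them. In bulk RNA fewer myotubes and less RNA per myotube cannot be told apart.

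The sequences upstream of 7 of the 9 genes were found in a RefSeq table (GRCm38.p6), and each of the 7 held an E-box, spelled CANNTG, the element read by myogenic helix-loop-helix factors. Over all 32851 windows of the same 250 bases, 66.2% held one. A MEF2 motif lay in the windows of Ttn and Myom3 and in 2.92% of all windows, a CArG box in that of Myom1 and in 1.47% of all, and CATTCC in that of Mybpc2 and in 12.6% of all, both strands being searched. Shown are the windows of titin and of both genes of myosin-binding protein C, the genes on which the substrate comparisons turn. Each is read 5′ to 3′ on the minus strand up to the start of the RefSeq entry, which for Mybpc2 lies slightly upstream of the gene start given above, with capitals for E-boxes and, in Ttn, the MEF2 motif and, in Mybpc2, GGAATG, the reverse complement of CATTCC. A match describes letters and not a bound site.
Ttn, chr2:76982548-76982797: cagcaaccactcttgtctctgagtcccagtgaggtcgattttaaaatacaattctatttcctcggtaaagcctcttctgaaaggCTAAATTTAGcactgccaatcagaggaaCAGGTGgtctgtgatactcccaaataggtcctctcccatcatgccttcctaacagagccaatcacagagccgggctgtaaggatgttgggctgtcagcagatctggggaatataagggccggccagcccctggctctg
Mybpc1, chr10:88605153-88605402: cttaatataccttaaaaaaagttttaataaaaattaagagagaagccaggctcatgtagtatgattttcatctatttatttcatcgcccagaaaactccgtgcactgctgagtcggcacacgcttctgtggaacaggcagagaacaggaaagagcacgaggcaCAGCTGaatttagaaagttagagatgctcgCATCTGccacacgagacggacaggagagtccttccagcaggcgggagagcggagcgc
Mybpc2, chr7:44524670-44524919: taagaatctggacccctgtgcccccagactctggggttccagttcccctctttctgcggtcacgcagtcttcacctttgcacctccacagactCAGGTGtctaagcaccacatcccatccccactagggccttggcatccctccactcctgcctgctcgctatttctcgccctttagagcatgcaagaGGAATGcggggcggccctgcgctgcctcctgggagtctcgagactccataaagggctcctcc

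All 9 genes rose between D0 and D4 in C2C12 cells on plastic, beside 58% of all genes tested (30.2% higher and 27.7% lower). The genes of myosin-binding protein C rose furthest. The fast form Mybpc2 was read at 6, 12 and 11 counts at D0 (0.118, 0.205 and 0.239 TPM) and stood at 19.1, 23.9 and 22 TPM at D4 (133-fold, 7.06 ± 0.18, adjusted p = 2.22e-16). The slow form Mybpc1 went from 17, 27 and 23 counts (0.633, 1 and 0.459 TPM) to 33.1, 41.7 and 35.9 TPM (91.8-fold, 6.52 ± 0.15, adjusted p = 3.67e-17). Every D4 library lay above every D0 library, though the D0 levels of both genes rest on few reads. By normalized counts the groups were apart for all 9 genes and for 69.7% of all genes tested.

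The giant genes were already read in myoblasts. Ttn stood at 56.5, 82.4 and 97.9 TPM at D0 and 717, 721 and 800 TPM at D4 (13.5-fold, 3.75 ± 0.29, adjusted p = 1.18e-09). Neb stood at 27.5, 29.2 and 34.6 TPM and then 639, 656 and 739 TPM (25.5-fold, 4.67 ± 0.35, adjusted p = 7.70e-10). The 3 myomesins rose by similar amounts, Myom1 by 4.90 ± 0.11, Myom2 by 4.68 ± 0.10 and Myom3 by 4.90 ± 0.13. Nrap (2.98 ± 0.12) and Obsl1 (3.04 ± 0.17) rose least, from 8 ± 0.709 and 34.6 ± 6.7 TPM (SD, n = 3).

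Most genes of 3 lists of related genes also rose. Of 16 titin partners 14 rose and 1 fell (median log2 fold change 2.48). Of 14 genes of nebulin and thin filament length 11 rose and 1 fell (2.37). Of 13 other genes in a list drawn up for the M band and myosin binding, here the M-band list, 11 rose (4.73). Not every gene of that list encodes an M-band protein. The median of all genes was 0.00, and 30.2% of all genes were called higher and 27.7% lower. Examples are Actn2, the gene of the Z-disc cross-linker alpha-actinin 2 (5.03 ± 0.14), the thin filament gene Lmod2 (5.04 ± 0.14) and the muscle creatine kinase gene Ckm (5.27 ± 0.16).

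**Figure D1:**
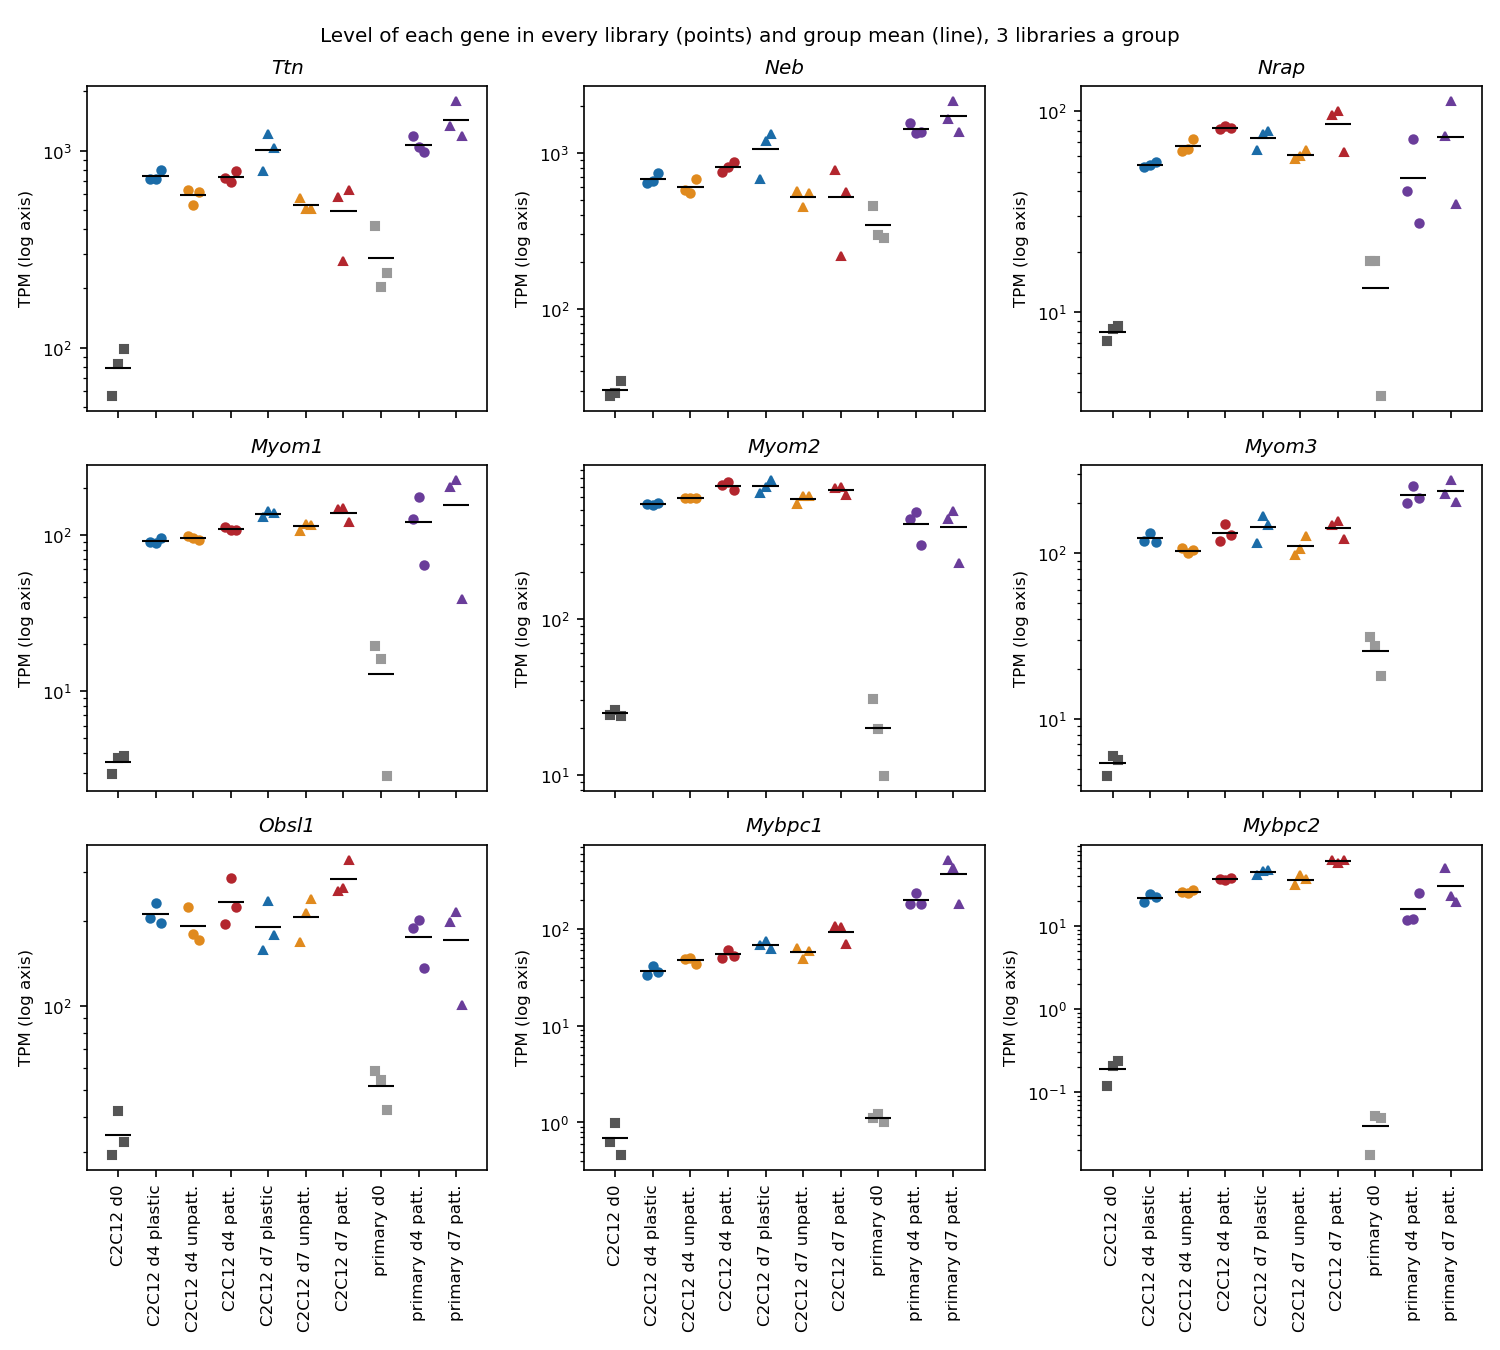
TPM of each of the 9 genes (log axis) in every library (points) with the group mean (line), for 10 groups of 3 libraries. Each gene is lowest at day 0 within its cell type, and at day 7 on patterned gelatin the group means were 373 TPM in primary and 93.9 TPM in C2C12 myotubes for Mybpc1, but 30.4 and 60.5 TPM for Mybpc2.

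In D4 myotubes on plastic the most abundant of the 9 per unit length were Ttn (746 ± 46.8 TPM), Neb (678 ± 53.4) and Myom2 (543 ± 11.6), and the libraries of Ttn and Neb overlapped. Obsl1 (212 ± 18.9), Myom3 (122 ± 8.51) and Myom1 (91.3 ± 3.38) came next. Nrap (54 ± 1.48), Mybpc1 (36.9 ± 4.39) and Mybpc2 (21.6 ± 2.43) were lowest, without overlap between neighbours. TPM of the giant genes depends on which transcripts are counted, since annotated transcripts of 10 kb or more gave 40.8% to 65.6% of Ttn TPM and 41.9% to 57.8% of Neb TPM, and shorter annotated fragments gave the remainder.

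From D4 to D7 the myosin-binding genes rose again. On plastic 3 of 9 genes were called, all higher, beside 14.8% of all genes tested (6.47% higher and 8.37% lower). They were Mybpc1 (67.9, 75.3 and 62.5 TPM at D7, 0.70 ± 0.10, adjusted p = 2.05e-04), Mybpc2 (40.5, 45.7 and 47 TPM, 0.82 ± 0.11, adjusted p = 1.56e-04) and Myom1 (130, 142 and 138 TPM, 0.35 ± 0.09, adjusted p = 0.0147). On patterned gelatin the same 3 were called higher, beside 20.3% of all genes tested (11.3% higher and 9.03% lower), with differences of 0.84 ± 0.10, 0.75 ± 0.11 and 0.33 ± 0.09. The call of Myom1 was lost in 1 of 6 and 2 of 6 fits that left out 1 library, and on patterned gelatin also when only the groups compared were fitted (0.31, adjusted p = 0.121).

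On unpatterned gelatin 1 gene was called from D4 to D7, Mybpc2 (0.44 ± 0.11, adjusted p = 0.0368), beside 2.92% of all genes tested (1.62% higher and 1.31% lower), and it was lost in 5 of 6 fits without 1 library. The giant genes passed on no substrate. Ttn was at 0.47 ± 0.26 on plastic and -0.52 ± 0.26 on patterned gelatin, and Neb at 0.47 ± 0.30 and -0.72 ± 0.30. The values on patterned gelatin rest partly on D7 replicate 2, without which they were -0.19, adjusted p = 0.47 for Ttn and -0.35, adjusted p = 0.24 for Neb, whereas without D7 replicate 1 Neb was called (-1.11, adjusted p = 0.0142). Xirp2, an actin-binding repeat gene, rose on plastic (2.07 ± 0.37), unpatterned (2.34 ± 0.37) and patterned gelatin (1.93 ± 0.37).

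At D4 the genes of myosin-binding protein C and Nrap were higher on patterned gelatin than on plastic. Of the 9 genes 3 were called higher and 0 lower, beside 3.55% of all genes tested (2.1% higher and 1.46% lower). Mybpc2 was at 36.1, 35.1 and 37.2 TPM on patterned gelatin and 19.1, 23.9 and 22 TPM on plastic (1.51-fold, 0.60 ± 0.11, adjusted p = 0.00679). Mybpc1 was at 50.6, 61 and 52.5 against 33.1, 41.7 and 35.9 TPM (1.39-fold, 0.47 ± 0.10, adjusted p = 0.0141). Nrap was at 81, 84.7 and 82.3 against 52.5, 54.1 and 55.5 TPM (1.39-fold, 0.47 ± 0.11, adjusted p = 0.0246). The groups did not overlap for any of these genes, but the call of Nrap was lost in 6 of 6 fits without 1 library and that of Mybpc1 in 3 of 6. By normalized counts the groups were apart for 4 of the 9 genes and for 37.4% of all genes tested. Ttn (-0.04 ± 0.26) and Neb (0.10 ± 0.30) did not pass.

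Unpatterned gelatin against plastic at D4 gave 1 gene called higher and 1 lower, beside 7.89% of all genes tested (4.02% higher and 3.87% lower). Mybpc1 was at 49, 49.8 and 43 TPM on unpatterned gelatin (0.35 ± 0.10, adjusted p = 0.0367). Myom3 was at 107, 99.7 and 104 TPM against 118, 132 and 117 TPM on plastic (-0.35 ± 0.11, adjusted p = 0.0463). Neither gene overlapped plastic, but both calls were lost in 6 of 6 fits without 1 library, and limma called 0. By normalized counts the groups were apart for 6 of the 9 genes and for 39.6% of all genes tested. Between patterned and unpatterned gelatin at D4 edgeR called 0 of 9, beside 0.00674% of all genes tested (0.00674% higher and 0% lower). There 4 genes (Nrap, Myom2, Myom3 and Mybpc2) had an unadjusted p under 0.05, DESeq2 called 1 and limma 0. By normalized counts these groups were apart for 8 of the 9 genes and for 21.3% of all genes tested. The median log2 fold change was 0.28 for the 9 and 0.00 for all genes.

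At D7 the giant genes were lower, and 3 shorter genes higher, on patterned gelatin than on plastic. Of the 9 genes 5 were called, 3 higher and 2 lower, beside 23.8% of all genes tested (12.9% higher and 10.9% lower). Ttn was at 579, 274 and 628 TPM on patterned gelatin and 792, 1217 and 1028 TPM on plastic (2.05-fold lower, -1.04 ± 0.26, adjusted p = 0.0115). Neb was at 771, 219 and 564 against 683, 1185 and 1314 TPM (2.12-fold lower, -1.08 ± 0.30, adjusted p = 0.0175). By normalized counts the groups were apart for 4 of the 9 genes and for 32% of all genes tested. In TPM the groups were apart for Ttn and overlapped for Neb, and patterned replicate 2 was the lowest library in both. Without that library the differences were -0.71, adjusted p = 0.0138 for Ttn and -0.72, adjusted p = 0.0241 for Neb. Without plastic replicate 3 the call of Neb was lost (-0.90, adjusted p = 0.0666).

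The genes that rose were Obsl1, Mybpc1 and Mybpc2. Obsl1 was at 257, 264 and 333 TPM on patterned gelatin and 158, 236 and 179 TPM on plastic (1.63-fold, 0.71 ± 0.16, adjusted p = 0.00598). Mybpc1 was at 108, 105 and 69.3 against 67.9, 75.3 and 62.5 TPM (1.53-fold, 0.61 ± 0.10, adjusted p = 0.00119). Mybpc2 was at 62.3, 57.2 and 61.9 against 40.5, 45.7 and 47 TPM (1.44-fold, 0.53 ± 0.11, adjusted p = 0.00478). The groups overlapped in TPM only for Mybpc1, where patterned replicate 3 lay inside the plastic range, and no call was lost when any 1 of the 6 libraries was left out. Myom1 (0.10 ± 0.09), Myom2 (0.00 ± 0.09) and Myom3 (0.10 ± 0.11) were near 0, and Nrap was at 0.29 ± 0.11, adjusted p = 0.0601.

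The 5 calls rest on a spread estimated over all 21 C2C12 libraries. When the 6 libraries compared were fitted alone, edgeR called 0 of 9 genes and 21 genes in all, with Ttn at -1.04, adjusted p = 0.218. Mybpc1 was also lost with limma on log2(TPM + 1) (0.42, adjusted p = 0.0621). Fibroblast markers summed to 381 to 719 TPM on plastic and 728 to 1153 TPM on patterned gelatin. They summed to 674 to 792 TPM in C2C12 myoblasts at D0, so they need not measure fibroblasts in this line. In the same order of substrates, proliferation markers summed to 69.9 to 138 TPM and 61.5 to 81 TPM. Myogenic markers summed to 3865 to 4730 TPM and 4545 to 5555 TPM. The patterned libraries held 13.1 to 30.03 Mcounts and the plastic libraries 22.7 to 31.5 Mcounts. The part of these in the result was not tested.

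**Figure D2:**
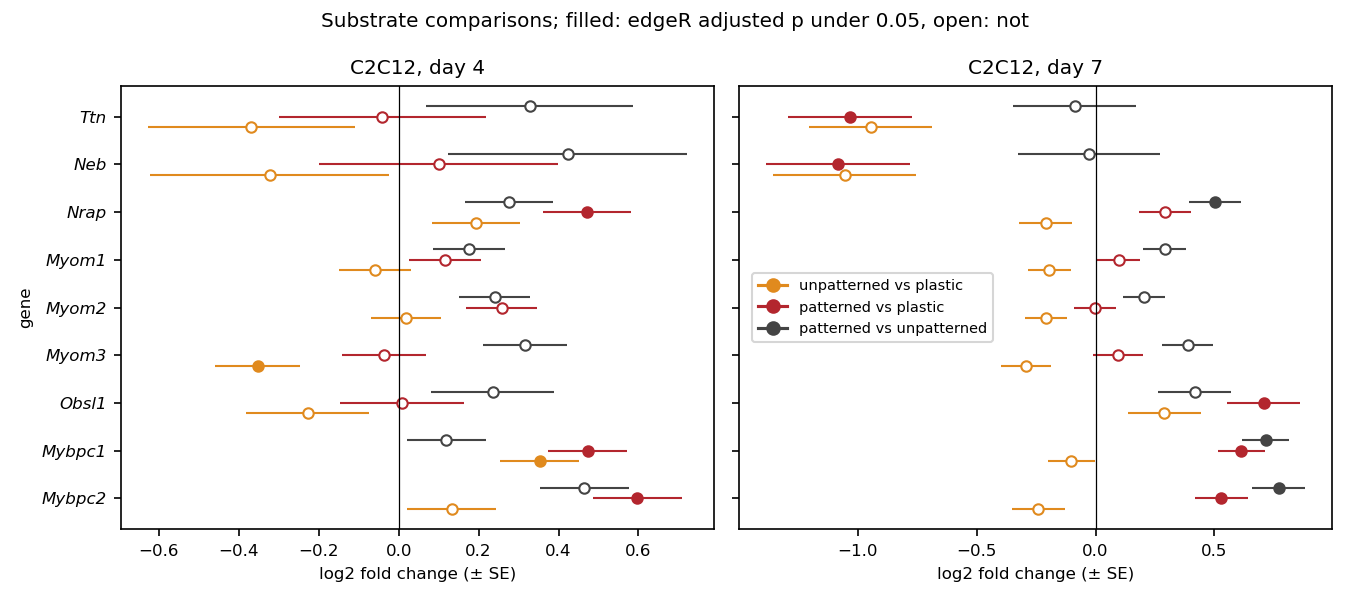
Log2 fold change (± SE, edgeR) of each gene between substrates in C2C12 myotubes at day 4 (left) and day 7 (right), filled where the adjusted p was under 0.05. At day 7 Ttn and Neb lie at -1.04 and -1.08 on patterned gelatin against plastic, while Obsl1, Mybpc1 and Mybpc2 lie between 0.53 and 0.71.

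On unpatterned gelatin at D7, Ttn was at 575, 506 and 507 TPM and Neb at 572, 449 and 550 TPM, each below all 3 plastic libraries. By normalized counts the groups were apart for 4 of the 9 genes and for 21.7% of all genes tested. Against plastic edgeR called 0 of 9 genes, beside 3.46% of all genes tested (2.49% higher and 0.977% lower), with Ttn at -0.95 ± 0.26, adjusted p = 0.052 and Neb at -1.06 ± 0.30, adjusted p = 0.061. At an unadjusted p under 0.05 there were 6 (Ttn, Neb, the 3 myomesins and Mybpc2), DESeq2 called 2, Ttn and Neb, and limma 0. With the replicate number as a block Neb was called (-1.06, adjusted p = 0.0473), though C2C12 libraries of the same number were not alike (median r = 0.0286). The plastic libraries are shared with the comparison of patterned gelatin, so the values stand side by side and are not independent.

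Patterned against unpatterned gelatin at D7 gave 3 genes called higher and 0 lower, beside 0.546% of all genes tested (0.397% higher and 0.148% lower). Mybpc2 was at 62.3, 57.2 and 61.9 against 30.9, 40.4 and 36.2 TPM (1.71-fold, 0.77 ± 0.11, adjusted p = 0.00251). Mybpc1 was at 108, 105 and 69.3 against 63.3, 49.1 and 58.9 TPM (1.64-fold, 0.72 ± 0.10, adjusted p = 0.00225). Nrap was at 95.6, 100 and 62.7 against 57.7, 59.7 and 64 TPM (1.42-fold, 0.50 ± 0.11, adjusted p = 0.0462), a call lost in 4 of 6 fits without 1 library. In TPM patterned replicate 3 lay inside the unpatterned range of Nrap and above it for both other genes. By normalized counts the groups were apart for 7 of the 9 genes and for 16% of all genes tested. The median log2 fold change was 0.39 for the 9 and 0.00 for all genes. With these 6 libraries fitted alone edgeR called 0 of 9, and limma called 1, Mybpc2. With all C2C12 libraries fitted, DESeq2 called 5 of 9, and 7 genes (all but Ttn and Neb) had an unadjusted edgeR p under 0.05. Ttn (-0.09 ± 0.26) and Neb (-0.03 ± 0.30) did not pass.

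A test of the difference between days asked whether the effect of patterned gelatin against plastic changed from D4 to D7. Of the 9 genes 1 was called, near the share of all genes tested, 11.7% (6.24% higher and 5.5% lower). It was Obsl1 (0.70 ± 0.22, adjusted p = 0.0458), which had differed by 0.01 ± 0.15 at D4. The corresponding values were -1.18 ± 0.42, adjusted p = 0.068 for Neb and -0.99 ± 0.37, adjusted p = 0.0739 for Ttn. The call of Obsl1 was lost in 8 of 12 fits without 1 library, and with limma on log2(TPM + 1) (0.45, adjusted p = 0.235), which called Neb, Ttn and Myom2 lower instead. Fitting only the groups compared ended it too, and DESeq2 called Obsl1, Neb and Ttn. With the replicate number as a block, Neb was called too (-1.23, adjusted p = 0.0465), though C2C12 libraries share only a number.

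The giant genes were set beside the M-band genes as the ratio of Ttn plus Neb TPM to the TPM of the 3 myomesins in each library. In C2C12 at D7 it was 1.66, 2.38 and 2.22 on plastic, 1.53, 1.14 and 1.24 on unpatterned gelatin and 1.37, 0.493 and 1.38 on patterned gelatin, so that neither gelatin group overlapped plastic. On the log2 scale the differences from plastic were -0.67 for unpatterned (exact two-sided permutation test, p = 0.1) and -1.08 for patterned gelatin (exact test, p = 0.1), and 0.1 is the smallest p that 3 against 3 allows. Without patterned replicate 2 the latter was -0.58. At D4 the differences were -0.31 (exact test, p = 0.1) and -0.21 (exact test, p = 0.3). In primary cells the ratio was 10.7, 7.93 and 17 at D0, 3.59, 2.6 and 4.07 at D4 and 3.43, 3.99 and 5.42 at D7.

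**Figure D3:**
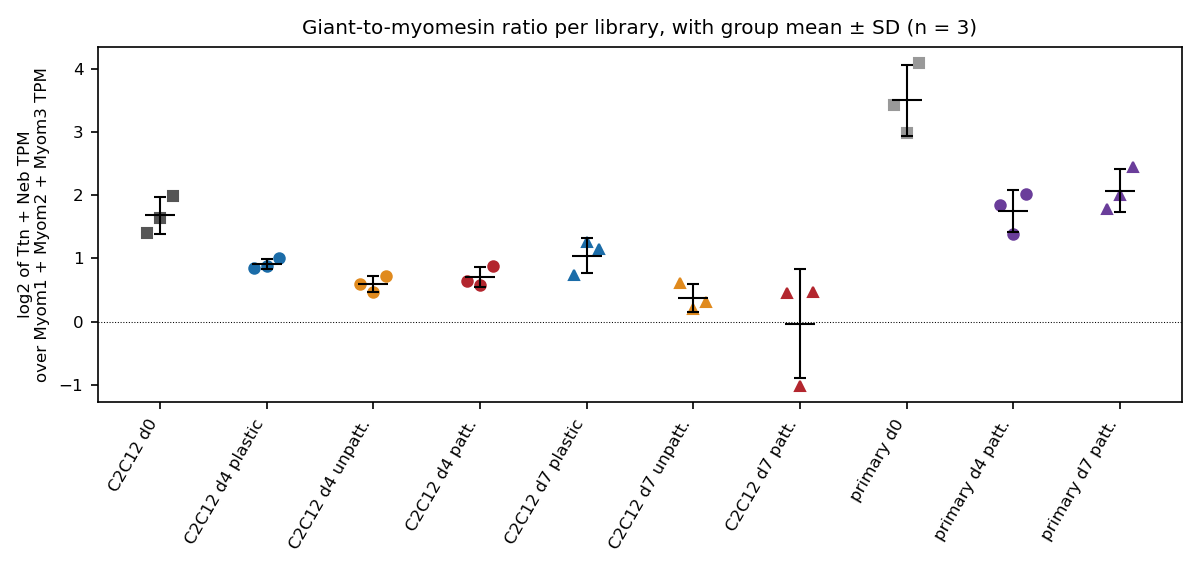
Log2 ratio of Ttn plus Neb TPM to Myom1 plus Myom2 plus Myom3 TPM in each library (points) with the group mean ± SD (n = 3). In C2C12 at day 7 the means are 1.04 ± 0.27 on plastic, 0.37 ± 0.22 on unpatterned and -0.03 ± 0.86 on patterned gelatin, and primary myotubes lie at 1.75 ± 0.33 (day 4) and 2.07 ± 0.34 (day 7).

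Other long genes were read in the same comparisons. Among the 196 other tested genes of 10 kb or more, the median log2 fold change of patterned gelatin against plastic at D7 was -0.31, with 27% called lower, and that of unpatterned gelatin was -0.24. At D4 the medians were 0.04 and -0.12. By library, the median of these genes relative to all genes was -0.06, -0.62 and -0.31 in patterned replicates 1, 2 and 3 at D7, -0.16, -0.39 and -0.14 on unpatterned gelatin and -0.12, 0.13 and -0.02 on plastic. The library lowest in Ttn and Neb was also lowest in other long genes at D7.

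Among the longest abundant genes, Zbtb20 (-1.02 ± 0.31, adjusted p = 0.0249) and the cytoskeletal linker Dst (-0.59 ± 0.17, adjusted p = 0.0232) fell on patterned gelatin against plastic at D7. Macf1 was at -0.72 ± 0.26, Syne2 at -0.34 ± 0.17, D1Ertd622e at -0.25 ± 0.11, Ahnak at -0.12 ± 0.11 and Kmt2d at 0.34 ± 0.32. With a trend on transcript length, fitted on genes other than the 9, removed from the counts, Ttn was at -0.76, adjusted p = 0.0131 and Neb at -0.85, adjusted p = 0.016. Length was capped at its 99th percentile in that trend, so that neither gene was corrected at its own length.

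**Figure D4:**
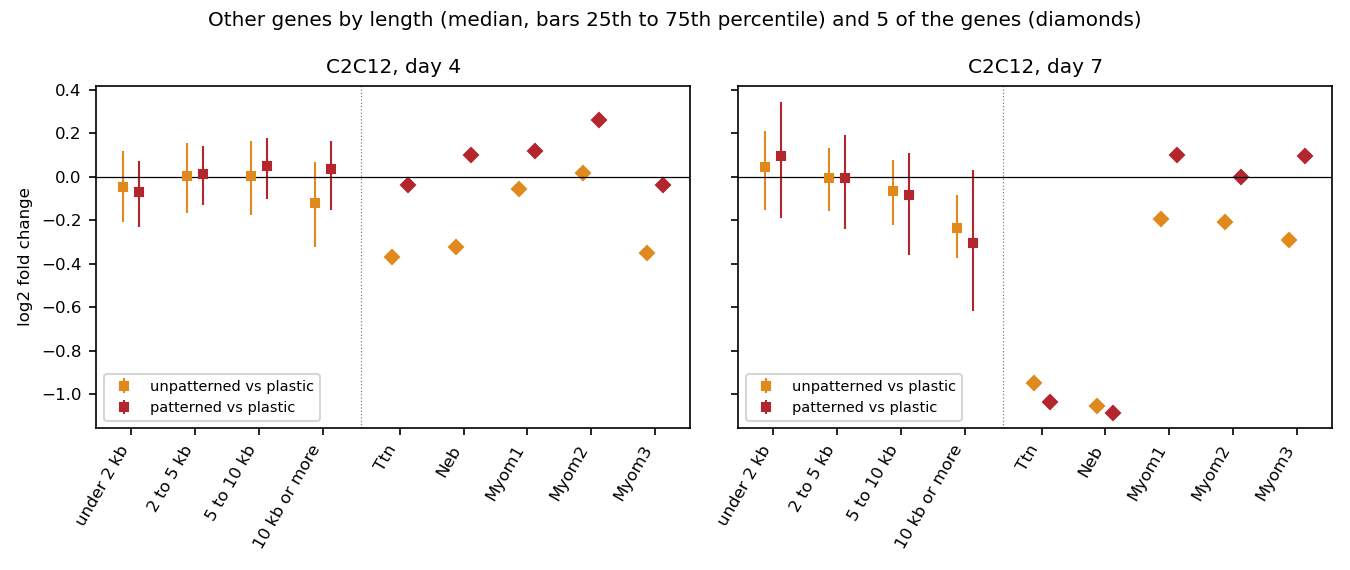
Median log2 fold change of other genes in 4 classes of transcript length (squares, bars from the 25th to the 75th percentile) beside Ttn, Neb and the 3 myomesins (diamonds), for gelatin against plastic in C2C12 at day 4 and day 7. At day 7 genes of 10 kb or more lie at -0.31 on patterned and -0.24 on unpatterned gelatin, and Ttn at -1.04 and -0.95.

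Among the interacting genes on patterned gelatin against plastic at D7, 6 of 16 titin partners rose and 0 fell (median 0.23, where the median of all genes was 0.01 and 12.9% of all genes were called higher and 10.9% lower). They included Actn2 (0.88 ± 0.11, adjusted p = 1.76e-04, 205 ± 34.1 against 116 ± 17.3 TPM), the ankyrin repeat gene Ankrd23 (0.50 ± 0.11) and Tcap, which caps titin at the Z disc (0.82 ± 0.21). In the nebulin list 2 of 14 rose and 2 fell (median 0.10), shares near those of all genes, with Nebl, the gene of the nebulin relative nebulette, at -1.31 ± 0.28, adjusted p = 0.00533 and Klhl40, which stabilizes nebulin, at 0.41 ± 0.12. Of 13 genes of the M-band list 5 rose and 1 fell (median 0.26). Fsd2 was at 0.55 ± 0.12, Ccdc8, a partner of Obsl1, at 0.34 ± 0.10 and Lrrc39, a myosin-binding gene of the M band, at -0.55 ± 0.15.

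At D4 the same comparison called 0 titin partners, 0 genes of the nebulin list and 2 of the M-band list, where 3.55% of all genes were called. These were Cmya5, the gene of myospryn (1.83 ± 0.21, adjusted p = 1.31e-04), and Fsd2 (0.51 ± 0.11). Unpatterned gelatin against plastic at D4 called 1 titin partner higher and 1 gene of the nebulin list lower (7.89% of all genes). Of the M-band list it called 1 higher and 3 lower. At D7 it called Igfn1 alone among the 3 lists (-1.10 ± 0.17, adjusted p = 0.00148, with 3.46% of all genes called). Patterned against unpatterned gelatin at D7 called Actn2 (0.87 ± 0.11), Ankrd23 (0.56 ± 0.11), the thin filament cap gene Tmod1 (0.43 ± 0.09), Igfn1 (0.91 ± 0.17) and Cmya5 (0.98 ± 0.20), all higher, where 0.546% of all genes were called.

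Primary myoblasts carried more Ttn and Neb than C2C12 myoblasts. At D0 on plastic 6 of 9 genes were called higher and 1 lower in primary cells, beside 57.5% of all genes tested (29.6% higher and 27.9% lower). Neb was at 458, 297 and 287 TPM against 27.5, 29.2 and 34.6 TPM (12.7-fold, 3.66 ± 0.31, adjusted p = 5.10e-10). Ttn was at 412, 203 and 238 against 56.5, 82.4 and 97.9 TPM (3.83-fold, 1.94 ± 0.28, adjusted p = 1.90e-06). Myom3 (2.49 ± 0.15), Myom1 (1.90 ± 0.48), Mybpc1 (1.19 ± 0.32) and Obsl1 (0.68 ± 0.20) were also higher. Mybpc2 was called lower, at 1, 3 and 3 counts in the primary libraries, too few for a fold, and that call was lost in 5 of 6 fits without 1 library. Myogenic markers summed to 1980 to 2561 TPM and proliferation markers to 233 to 325 TPM in these primary libraries, the latter against 994 to 1146 TPM in C2C12, and the part of this was not tested.

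All 9 genes rose from D0 to D4 in primary cells, beside 42.6% of all genes tested (20.2% higher and 22.4% lower). This fit did not pair the primary libraries by number. With the replicate number as a block 8277 genes were called in all, against 6116, and the 9 stayed called. By the labels the substrate changed from plastic to patterned gelatin as well, so that day and substrate cannot be told apart. Ttn reached 1187, 1038 and 988 TPM (2.27 ± 0.27, adjusted p = 2.98e-04) and Neb 1558, 1335 and 1355 TPM (2.26 ± 0.21, adjusted p = 9.16e-05). Mybpc1 went from 1.1, 1.21 and 1.01 to 183, 233 and 181 TPM (7.72 ± 0.43, adjusted p = 1.25e-05), and Mybpc2 reached 11.7, 11.9 and 24.7 TPM. Nrap had the smallest difference (1.93 ± 0.61, adjusted p = 0.0325), and its call was lost in 3 of 6 fits without 1 library.

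From D4 to D7 in primary myotubes edgeR called 0 of 9 genes, beside 0% of all genes tested (0% higher and 0% lower). At an unadjusted p under 0.05 there was 1, Mybpc1 (519, 421 and 179 TPM at D7, 0.86 ± 0.32), and DESeq2 and limma called 0. Myom1 was at 202, 223 and 38.8 TPM and Nrap at 75, 113 and 34.6 TPM at D7, and replicate 3 was lowest in all of these. Without the primary libraries numbered 3, Mybpc1 was called (1.21, adjusted p = 0.0221). The primary libraries were not paired by number in these tests. With all of them kept and the replicate number as a block, no call among the 9 changed.

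On patterned gelatin the cell types differed in the balance between members of a family. In primary against C2C12 myotubes 3 of 9 genes were called higher and 2 lower at D4, beside 50.6% of all genes tested (25.7% higher and 25% lower). At D7 4 were called higher and 3 lower, beside 51.5% of all genes tested (25% higher and 26.4% lower). The D4 counts were near the shares of all genes, so the number called is no trait of the 9 there. The slow form Mybpc1 was higher at D4 (183, 233 and 181 against 50.6, 61 and 52.5 TPM, 1.96 ± 0.22) and D7 (1.96 ± 0.22). The fast form Mybpc2 was lower at D4 (-0.99 ± 0.27, adjusted p = 0.00383) and D7 (49, 22.8 and 19.3 against 62.3, 57.2 and 61.9 TPM, -0.86 ± 0.27, adjusted p = 0.00957), the D7 call being lost in 2 of 6 fits without 1 library. Mybpc1 made up 92.4% ± 3.81 (SD, n = 3) of the TPM of the pair at D4 and 92.2% ± 2.39 at D7 in primary myotubes, against 60.1% ± 2.92 and 60.3% ± 6.49 in C2C12.

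Among the myomesins, Myom2 was lower in primary myotubes at D4 (-0.72 ± 0.22, adjusted p = 0.00923) and D7 (437, 491 and 226 against 690, 696 and 619 TPM, -0.72 ± 0.22, adjusted p = 0.00926), and Myom3 was higher at D4 (0.91 ± 0.14) and D7 (227, 275 and 205 against 148, 156 and 122 TPM, 0.86 ± 0.14, adjusted p = 1.47e-05). Myom2 made up 74.7% ± 1.04 and 70.5% ± 1.2 of myomesin TPM in C2C12 at D4 and D7, and 54% ± 2.82 and 49.4% ± 1.16 in primary myotubes. The call of Myom2 was lost without primary replicate 3 at D4 (-0.57, adjusted p = 0.0627) and at D7 (-0.41, adjusted p = 0.109), but with all primary libraries numbered 3 left out the values were -0.57, adjusted p = 1.87e-04 and -0.43, adjusted p = 0.00236. Myom1 was not called with every library in (0.28 ± 0.45 and 0.29 ± 0.45), and without those libraries it was higher (0.58, adjusted p = 2.05e-04 at D4 and 0.77, adjusted p = 6.00e-06 at D7).

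Neb was higher in primary myotubes at D4 (1.20 ± 0.28, adjusted p = 0.00114) and D7 (1642, 2154 and 1368 against 771, 219 and 564 TPM, 2.20 ± 0.29, adjusted p = 1.03e-06). Ttn was higher at D7 (1327, 1791 and 1180 against 579, 274 and 628 TPM, 1.59 ± 0.27, adjusted p = 3.23e-05) and at 0.54 ± 0.27, adjusted p = 0.0933 at D4. Obsl1 was lower at D7 (199, 216 and 100 against 257, 264 and 333 TPM, -0.62 ± 0.20, adjusted p = 0.0119), a call that ended without the primary libraries numbered 3 (-0.33, adjusted p = 0.0791). With only the 6 libraries of D7 fitted, the calls of Obsl1, Myom2 and Mybpc2 ended (adjusted p from 0.0737 to 0.116). Fibroblast markers summed to 6.71 to 102 TPM in primary and 523 to 1153 TPM in C2C12 myotubes on patterned gelatin, and the part of this was not tested. In C2C12 myoblasts at D0, a single line, the same markers summed to 674 to 792 TPM, so they need not measure fibroblasts there.

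Whether the change from D4 to D7 on patterned gelatin differed between the cell types was tested too. By edgeR 0 of 9 genes were called, beside 0.77% of all genes tested (0.252% higher and 0.518% lower). At an unadjusted p under 0.05 there were 2, Ttn (1.04 ± 0.38, adjusted p = 0.17) and Neb (1.00 ± 0.40, adjusted p = 0.208), and DESeq2 and limma called 0.

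Of the interacting genes at D7, 4 titin partners were higher and 3 lower in primary than in C2C12 myotubes (median 0.05). In the nebulin list 4 were higher and 1 lower (0.21), and in the M-band list 7 were higher and 3 lower (0.59). The median of all genes was 0.00, and 25% of all genes were called higher and 26.4% lower. The shares of titin partners and of the nebulin list that were higher, out of 16 and 14 tested, were thus near that of all genes. Actn2 was higher (2.71 ± 0.23, 1218 ± 493 against 205 ± 34.1 TPM), as were the protease gene Capn3 (1.16 ± 0.18), Xirp2 (4.81 ± 0.56), Nebl (2.15 ± 0.42) and the methyltransferase gene Smyd1 (1.62 ± 0.21). Lower were the titin-binding ankyrin repeat gene Ankrd2 (-3.63 ± 0.32), Igfn1 (-3.33 ± 0.31) and Ccdc8 (-2.63 ± 0.30).

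The transcripts counted within a gene differed between groups as well. Their shares are Kallisto's inference from reads that can match several transcripts, no reads across junctions were used here, and the exons were picked after the shares had been seen, so the values carry no test. Exon 3 of the annotated transcript Mybpc1-202 (42 bases, chr10:88582007-88582048, mm10, minus strand, coding) is absent from Mybpc1-201. Of counts on transcripts that include or skip it, 83.8%, 80.8% and 81.7% included it in C2C12 at D7 on plastic, 73.5%, 67.8% and 76.3% on unpatterned gelatin and 69.6%, 71.1% and 68.6% on patterned gelatin. Neither gelatin group overlapped plastic at D7. At D4 both did, with 81.4% to 85% on plastic, 81.7% to 85.5% on unpatterned and 73.2% to 82.2% on patterned gelatin. In primary myotubes the share that included exon 3 was 54.9%, 50.7% and 63.7% at D4 and 39.8%, 41.2% and 45.7% at D7, below every C2C12 myotube library.

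Exon 27 of Mybpc1-201 (59 bases, chr10:88521277-88521335, minus strand, coding) was near the complement, since both shares rest mainly on the same pair of transcripts. It was included in 17.7% ± 1.5 of counts at D7 on plastic, 30.1% ± 1.2 on patterned gelatin and 56.8% ± 2.95 in primary myotubes (SD, n = 3). Both exons are printed because they tell the transcripts apart, 5′ to 3′ on the transcribed strand, with the exon in capitals and 10 bases of the transcript on each side in lower case.
Mybpc1 exon 3: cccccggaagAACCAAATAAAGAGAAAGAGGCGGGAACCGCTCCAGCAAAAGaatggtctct
Mybpc1 exon 27: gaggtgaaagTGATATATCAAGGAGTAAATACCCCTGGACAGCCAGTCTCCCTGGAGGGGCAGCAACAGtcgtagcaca

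Exon 12 of Nrap-202 (105 bases, chr19:56374364-56374468, minus strand, coding) was included in 44.8% to 58.6% of counts in C2C12 myotubes. In primary myotubes it was included in 78.6%, 78.3% and 82.3% at D4 and 68.2%, 73.7% and 67% at D7, above every C2C12 myotube library. Exon 18 of Myom1-202 (294 bases, chr17:71082203-71082496, plus strand, coding) is the alternative exon of the EH segment, a flexible insert known from embryonic forms of myomesin. It was included in 12%, 17.6% and 15.7% of counts in C2C12 myoblasts, 6.11%, 5.46% and 3.44% at D7 on plastic and 2.63%, 1.56% and 1.62% at D7 on patterned gelatin. At D7 on unpatterned gelatin it was 2.85% to 5.29%, which overlapped plastic. At D4 it was 4.68% to 5.86% on plastic, 3.09% to 5.14% on unpatterned and 5.11% to 5.91% on patterned gelatin. In primary cells it was 9.72%, 14.2% and 10.1% at D0 and 2.67% to 4.19% in myotubes. Every myotube library lay below every D0 library, although the D0 shares rest on 227 to 1677 counts. The Nrap exon is shown with 10 flanking bases in lower case and the Myom1 exon without them.
Nrap exon 12: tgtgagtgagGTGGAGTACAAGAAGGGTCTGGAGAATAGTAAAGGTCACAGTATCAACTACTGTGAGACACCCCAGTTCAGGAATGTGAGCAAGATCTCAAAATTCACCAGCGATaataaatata
Myom1 exon 18: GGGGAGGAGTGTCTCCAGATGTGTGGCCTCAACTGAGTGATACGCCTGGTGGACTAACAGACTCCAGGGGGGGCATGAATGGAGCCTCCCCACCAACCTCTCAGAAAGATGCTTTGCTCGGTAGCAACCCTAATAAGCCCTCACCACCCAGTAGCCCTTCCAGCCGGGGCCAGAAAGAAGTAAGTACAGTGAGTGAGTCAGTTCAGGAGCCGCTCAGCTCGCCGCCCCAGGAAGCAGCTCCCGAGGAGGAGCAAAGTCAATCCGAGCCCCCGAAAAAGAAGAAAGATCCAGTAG

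**Figure D5:**
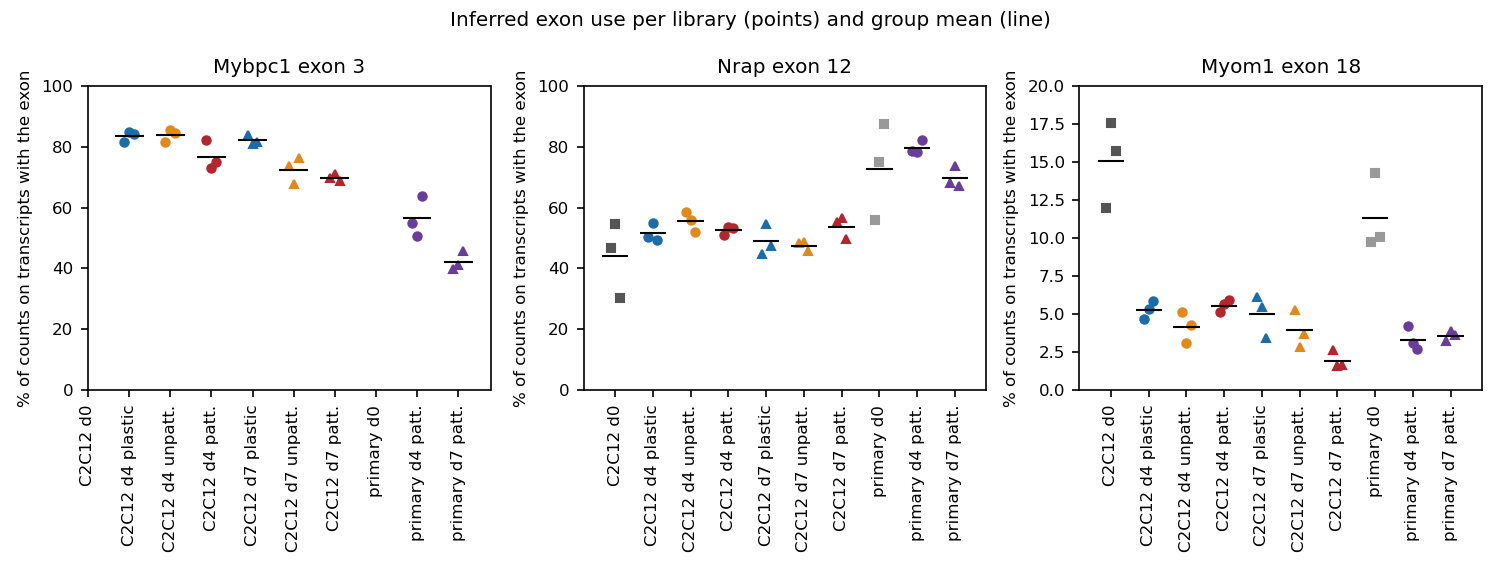
Share of counts on transcripts that include each of 3 exons, among transcripts that include or skip it, per library (points) with the group mean (line), the Mybpc1 panel without day 0, where counts were too few. Mybpc1 exon 3 lies at 80.8% to 83.8% at day 7 on plastic, 68.6% to 71.1% on patterned gelatin and 39.8% to 45.7% in primary myotubes, and Myom1 exon 18 is highest at day 0.

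The longest annotated titin transcript, Ttn-203 (106824 bases), held 24% to 26% of Ttn counts in C2C12 myoblasts and 6.63% to 9.4% in D4 myotubes. At D7 it held 7.06% to 9.47% on plastic, 5.14% to 6.56% on unpatterned and 3.12% to 4.31% on patterned gelatin, 3 ranges without overlap. In primary cells it held 9.34% to 12.2% over the 3 times. The longest transcript of Obsl1, Obsl1-202, went from 14.9% to 23.4% of Obsl1 counts in C2C12 and 30.8% to 37% in primary myoblasts to 60.04% to 71% in myotubes.

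Across the 24 myotube libraries Ttn and Neb varied together, with a Pearson r of log2 TPM of 0.966 (Spearman 0.912), and with r = 0.937 in the 18 C2C12 and 0.964 in the 6 primary libraries. Some other pairs differed between pooled and separate libraries. Myom2 and Myom3 had r = -0.516 over 24 libraries but 0.665 in C2C12 and 0.643 in primary myotubes, and Mybpc1 and Mybpc2 had -0.141, 0.884 and 0.691, with a pooled Spearman value of 0.12. Mybpc1 and Myom3 kept their sign, at 0.898, 0.559 and 0.614. Genes of a library share its substrate, day, depth and cell type, so these values are descriptions.

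Among 10025 abundant genes over the same 24 libraries, those whose log2 CPM was most like Ttn were Neb (r = 0.954), Golgb1 (0.913) and Luc7l2 (0.903). Those most like Neb were Zim1 (0.958), Ttn and Peg3 (0.947). Myom2 was nearest to Padi2 (0.95), Epha4 (0.943) and Scn10a (0.94), Mybpc1 to Afap1l1 (0.978), Mlip (0.978) and Vldlr (0.972), and Mybpc2 to Ndrg2 (0.858), Pfkm (0.845) and Letm1 (0.839).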

How the data were processed

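RNA from 30 libraries was prepared with a NEBNext kit. The authors quantified reads with Kallisto (version and annotation not given in the sources used here) on mm10, and deposited estimated counts and TPM per transcript without further normalization. Estimated counts and TPM were summed per gene through GENCODE M21 (GRCm38, the assembly of mm10), and counts were rounded. Transcripts with no match, 0.723% to 0.893% of the counts, were not used.

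Tests used edgeR 4.0.16 under R 4.3.3 (TMM, filterByExpr, quasi-likelihood test, Benjamini-Hochberg adjustment, threshold 0.05), with separate fits for 21 C2C12 libraries, 9 primary libraries and all 30 libraries. SE was derived from the fold change and its F statistic. Alternatives were DESeq2 1.42.0, limma 3.58.1 on log2(TPM + 1) and log2(TPM + 0.1), no filter on low counts, only the groups compared, removal of a spline trend on transcript length, a replicate block, leaving out each library and, chosen after seeing the data, leaving out the primary libraries numbered 3. Descriptions used Python 3.11.15, pandas 2.3.3 and numpy 2.4.6. The fits were tested on simulated data. The 9 genes and the lists of interacting genes were chosen with earlier results of these data known. Beyond the 9, a gene was named where it ranked in the top 3 of its list by adjusted p, was among the 3 most like a member or was 1 of the 8 longest abundant genes, of which 1 is not reported here. No libraries of a group agreed within counting noise (chi-square per degree of freedom at least 4.996). Primary libraries of the same number had deviations from group means that correlated at 0.299 to 0.848 over 9 pairs, and were therefore taken as paired in the block fit.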

Additional observations from a re-analysis of the deposited data

Results flagged for a closer look

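Obsl1 was marked because the effect of patterned gelatin against plastic in C2C12 myotubes differed between D4 and D7 by an interaction test (0.70 ± 0.22 on the log2 scale, edgeR adjusted p = 0.0458). It was the only 1 of the 9 genes called, a share near the 11.7% of all genes tested. The effect was 0.01 ± 0.15 at D4 and 0.71 ± 0.16 at D7. The call was lost in 8 of 12 fits that left out 1 library and with limma on log2(TPM + 1) (0.45, adjusted p = 0.235). Over the tools and settings run other than limma and leaving out 1 library, its adjusted p was 0.0195 to 0.0633.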

How the results depend on the processing

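Of 58 called results for the 9 genes, 0 changed sign and 35 stayed called under every alternative run. Under other settings 396 of 433 values, and with 1 library left out 298 of 354, stayed called, while 35 of 691 and 11 of 672 values of uncalled results became called. Fitting only the groups compared gave 0 genes of the 9 for patterned against plastic at D7 (21 of all genes, against 3537), 0 for patterned against unpatterned at D7 (0 against 81) and 1 at D4 (71 against 1), 4 for unpatterned against plastic at D4 (3223 against 1171), 0 for D7 against D4 on unpatterned gelatin, 0 for the interaction of substrate and day (193 against 1744) and 4 for primary against C2C12 at D7 (4676 against 7948). It also gave 70 of all genes for unpatterned against plastic at D7 (against 514), 2413 for patterned against plastic at D4 (against 527), 224 for D7 against D4 on patterned gelatin (against 3016) and 6 for the difference between cell types (against 119). DESeq2 gave 3 of the 9 for the interaction (2717 genes in all), 1 and 5 for patterned against unpatterned at D4 (148) and D7 (482) and 2 for unpatterned against plastic at D7 (970). Its counts of all genes were 722 for D7 against D4 on unpatterned gelatin (against 434), 58 in primary myotubes (against 0), 1006 for patterned and 1803 for unpatterned against plastic at D4, and 456 for the difference between cell types. With limma on log2(TPM + 1) and log2(TPM + 0.1) alike 5 of the 9 were called for D7 against D4 on plastic, 3 for the interaction, 1 for patterned against unpatterned at D7 and 0 for unpatterned against plastic at D4, and with 0.1 added 0 for D7 against D4 on unpatterned gelatin. The counts of all genes with 1 and 0.1 added were 239 and 196 for that comparison, 860 and 826 for patterned against plastic at D4, 205 and 173 for unpatterned against plastic at D7, 0 and 0 for patterned against unpatterned at D4, and 59 and 30 at D7. Without the filter, unpatterned against plastic gave 0 of the 9 at D4 and 2 at D7, and the counts of all genes were 343 for patterned against plastic at D4, 0 for patterned against unpatterned at D4 and 43 for the difference between cell types. With the length trend removed, unpatterned against plastic at D4 gave 1 of the 9, and patterned against unpatterned 0 of all genes at D4 and 182 at D7. The causes were not tested.

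With the replicate block, unpatterned against plastic at D7 gave 1 of the 9, Neb (-1.06, adjusted p = 0.0473), and the interaction 2, with Neb added (-1.23, adjusted p = 0.0465). Patterned against unpatterned gelatin gave 12 of all genes at D4 and 145 at D7, and the difference between cell types 182. C2C12 libraries of the same number had deviations that correlated at -0.275 to 0.368 (63 pairs, median 0.0286), and 6 of 21 were closest to their own number, so they share only a number. The block changed no other call among the 9, in primary cells included. Without the primary libraries numbered 3, D7 against D4 in primary cells gave 1 of the 9 (124 of all genes) and the difference between cell types 611 of all genes.

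With 1 library left out, the number called among the 9 ran from 2 to 4 for D7 against D4 on plastic, 2 to 4 on patterned and 0 to 1 on unpatterned gelatin, 0 to 3 for the interaction, 1 to 2 and 4 to 6 for patterned against plastic at D4 and D7, 0 to 0 and 0 to 3 for unpatterned against plastic, 2 to 3 for patterned against unpatterned at D7, and 6 to 7, 4 to 6 and 4 to 7 for primary against C2C12 at D0, D4 and D7. The ratio with Ttn alone over the 3 myomesins was -0.35 for patterned against plastic at D4, and with 1 library left out the ratio ran from -1.33 to -0.58 at D7 and from -0.30 to -0.15 at D4. On the TPM scale with 0.1 added the median of all genes moved by -0.21 to 0.21 over the comparisons. Depth limits Mybpc1 and Mybpc2 at D0, and 3 libraries against 3 cannot pass an exact test at 0.05.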
